A study of Homo sapiens with 24 samples.

Results

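The genes described here are 10 regulators of the integrated stress response, ATF4, ATF3, ATF5, DDIT3, TRIB3, CHAC1, SESN2, CEBPB, CEBPG and CREBRF. They were chosen by gene symbol, with earlier results of these data known, from the 18811 genes that had a named probe on Illumina expression BeadChips. To them belong 15 of the 27003 singly named probes. Transcript levels were measured in WM35 and Mel-624, both established human melanoma cell lines, on 24 arrays, with 8 groups whose 3 replicates carry the letters A, B and C. The WM35 groups spent 24 h either in 21% oxygen, called normoxia, or in 1% oxygen, called hypoxia. At each level 1 group stayed without added factor (control) and 1 received insulin-like growth factor 1 (IGF1) at 100 ng/mL for the 6 h before harvest. Mel-624 cells received an siRNA pool against the IGF1 receptor (siIGF1R) or a non-targeting pool (siControl) and stood for 3 days in normoxia or hypoxia, whose oxygen levels the labels do not give for this line. Every Mel-624 group was transfected and no WM35 group was. Both lines were kept in RPMI medium that held 5% bovine serum, which itself carries growth factors. The labels do not say whether replicates came from separate cultures, so p-values measure only the spread between these samples, which may be technical. Each line had a chip of its own, and line, transfection, time, oxygen level and chip cannot be told apart. In the array names the arrays of a group carry neighbouring or nearly neighbouring letters within the chip. If these letters give the place on the chip, place and group cannot be told apart within a line.

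In the integrated stress response, kinases that sense amino acid shortage, endoplasmic reticulum (ER) stress, haem shortage or viral RNA phosphorylate the translation factor eIF2 alpha. General protein synthesis then drops while the mRNA of ATF4 is translated better, so ATF4 is set largely at translation and the level of its mRNA does not report the amount of its protein. ATF4 is a basic leucine zipper (bZIP) factor that pairs with C/EBP proteins and switches on genes of amino acid synthesis, amino acid uptake and tRNA charging. IGF1 signalling reaches ATF4 through mTORC1, and hypoxia reaches it through the ER stress kinase PERK.

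Of the 10 genes, 9 were tested in WM35 and 8 in Mel-624. CHAC1, which breaks down glutathione, was not well above background on any of the 24 arrays. SESN2, a leucine sensor that restrains mTORC1, was not well above background on any Mel-624 array and was detected on 10 of 12 WM35 arrays. Neither gene is given a fold change where no array detected it. For ATF3, 1 of 3 probes was detected and the other 2 were at background on all 24 arrays. For every other tested gene the brightest detected probe was read, and further probes are given where they exist, for ATF4 and CREBRF.

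Between 13948 and 15987 of 47231 probes were detected per array. The WM35 normoxia controls had a higher mean raw signal (317 to 341) than the other 9 WM35 arrays (248 to 268), and the part of this in the results was not tested. The WM35 arrays farthest from their own groups were hypoxia control A and normoxia control C, with scores of 14.7 and 11.3 on the axis that held 31.3% of the spread within groups, followed by hypoxia IGF1 C at 10.96. Called WM35 values of the 10 genes for IGF1 at each oxygen level and for hypoxia without IGF1 are therefore also given without both control arrays. In Mel-624 the farthest were normoxia siIGF1R A (-11.0), hypoxia siIGF1R A (-10.0) and normoxia siControl B (9.76), on an axis with 19.7% of the spread. Without these 3 together, an alternative chosen after seeing the data, every Mel-624 call on the 10 genes held, and TRIB3 was added in the average of siIGF1R (0.20, adjusted p = 0.047). Of 8 melanocyte marker genes with a probe, 7 were detected on all 12 Mel-624 arrays, S100B on 0. In WM35 only SOX10 was detected on all 12 and 6 were detected on 0 (PMEL, MLANA, TYR, TYRP1, S100B and GPR143). The level summed over the tested genes of the list was 2183 to 3484 over the WM35 groups (2 genes). It was 51583 to 54713 over the Mel-624 groups (7 genes), and the lines were normalized separately. None of the 4 keratinocyte genes with a probe was detected in either line. Of 6 fibroblast genes LUM and DCN were detected on all Mel-624 arrays and 4 on none, with a summed level of 422 to 483 over the groups. The hypoxia genes DDIT4, VEGFA, ADM and NDRG1 all rose with hypoxia in both lines, by 1.26 to 2.76 on the log2 scale in WM35 without IGF1 and by 0.71 to 1.58 in Mel-624 siControl cells.

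Promoter stretches are shown because ATF4 and its partners act on their targets, some of these genes among them, through short DNA elements. In RefSeq on GRCh38.p14 all 10 genes had at least 1 start site, 19 in all, and the 250 bases before each were searched on both strands. The C/EBP-ATF composite element TGATGNAA, to which ATF4 and C/EBP factors bind together, was in 3 of the 19 windows, against 3.14% of all 35116. Those 3 belong to ATF3, CHAC1 and CEBPG. Each is printed within 30 bases of the strand of its gene, with the element in capitals.
ATF3, chr1:212565205-212565234, plus strand: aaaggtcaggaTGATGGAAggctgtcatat
CHAC1, chr15:40953251-40953280, plus strand, element on the opposite strand: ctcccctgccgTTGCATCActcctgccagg
CEBPG, chr19:33374060-33374089, plus strand, before the inner of its start sites: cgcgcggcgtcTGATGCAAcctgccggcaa
The 8-base cyclic AMP response element TGACGTCA (1.65% of windows) and the ER stress response element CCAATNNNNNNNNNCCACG (0.074%) were in none of the 19 windows. The hypoxia response core ACGTG (18.5%) was in 3 of the 19 windows, of ATF4 and CREBRF, each time within the palindromic E-box CACGTG (6.34%). That E-box was added after the windows were seen. The other form of the core, GCGTG (32.2%), was in 9 of the 19, of DDIT3, TRIB3, CHAC1, CEBPB, CEBPG and CREBRF. For CEBPB and CEBPG it lay only before an inner start site. A match is a description of these letters and not a binding site. The windows of CREBRF and ATF4, which hold the E-box, are printed whole. Capitals mark the E-box and the second hypoxia core, in either orientation.
CREBRF, chr5:173056102-173056351, plus strand: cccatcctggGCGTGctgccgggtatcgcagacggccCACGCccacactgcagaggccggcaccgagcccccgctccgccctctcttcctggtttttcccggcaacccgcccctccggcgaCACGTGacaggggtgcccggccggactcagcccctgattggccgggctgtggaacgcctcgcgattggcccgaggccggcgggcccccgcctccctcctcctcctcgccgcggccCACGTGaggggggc
ATF4, chr22:39520309-39520558, plus strand: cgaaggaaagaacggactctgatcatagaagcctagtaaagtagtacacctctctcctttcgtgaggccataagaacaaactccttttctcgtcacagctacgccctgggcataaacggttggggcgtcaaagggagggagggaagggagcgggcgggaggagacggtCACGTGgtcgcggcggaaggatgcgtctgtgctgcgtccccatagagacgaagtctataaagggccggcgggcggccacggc
The CREBRF window holds CACGTG at bases 129 to 124 and at bases 14 to 9 before its start, and the ATF4 window holds it at bases 82 to 77.

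**Figure D1:**
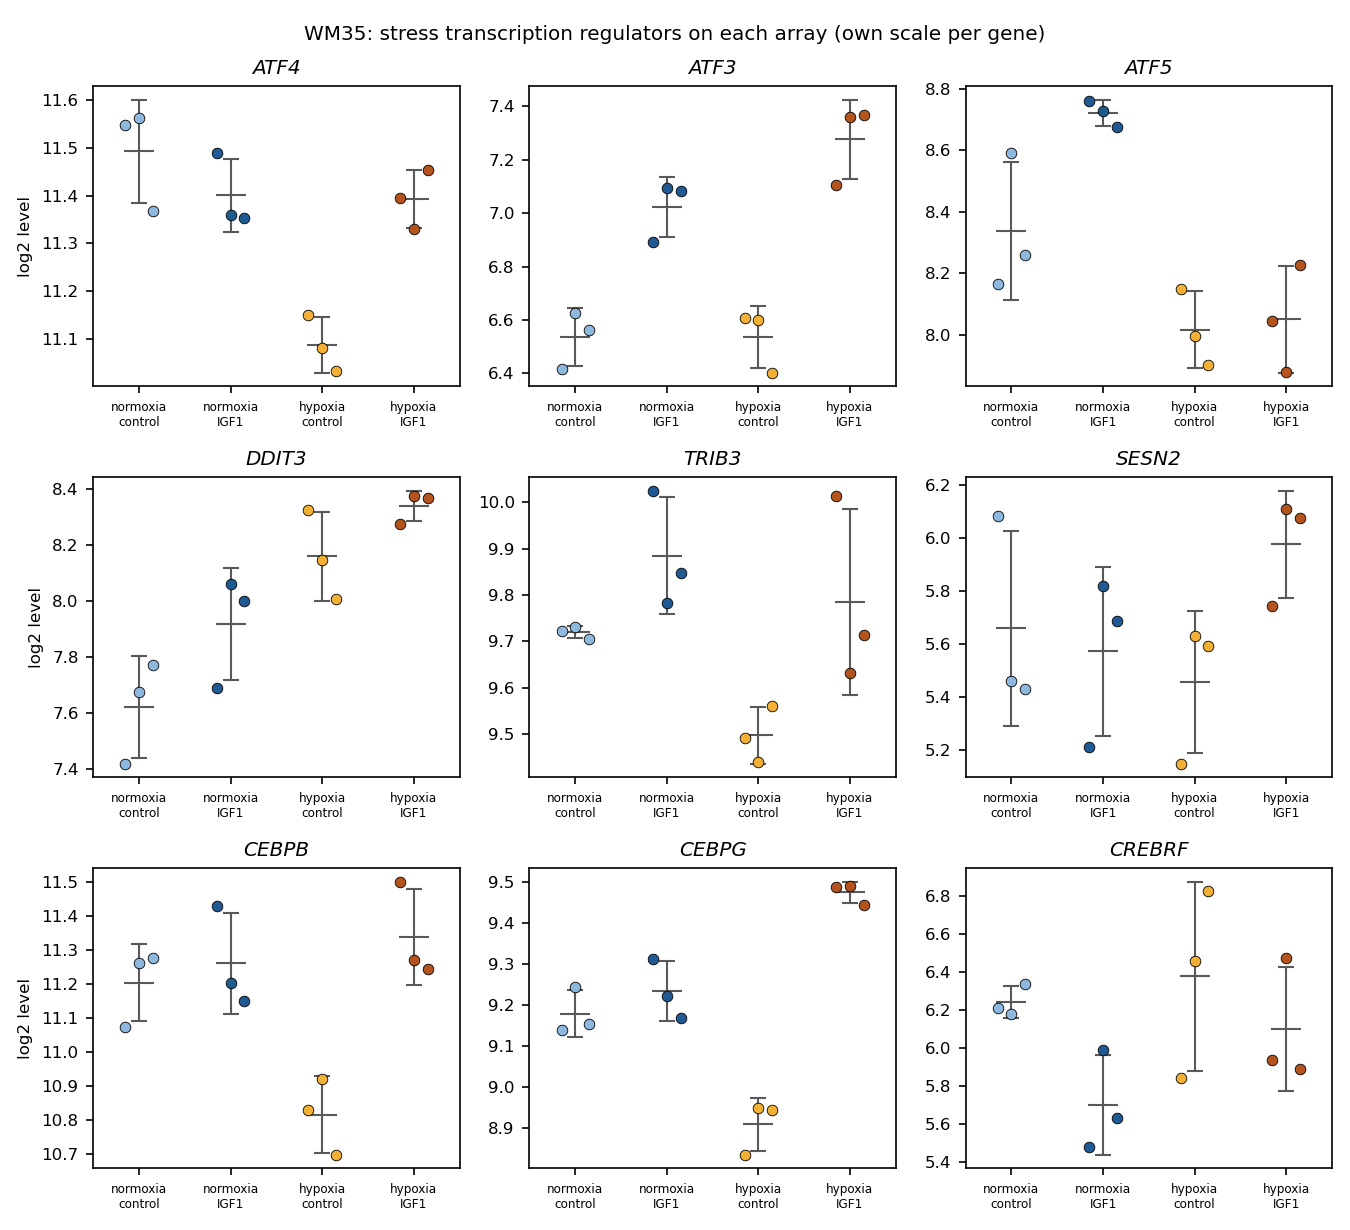
Normalized log2 level of the 9 tested genes on each of the 12 WM35 arrays, with 1 panel and 1 scale per gene, points for arrays A, B and C, and the group mean with its SD as bar and whiskers. ATF3 was higher in both IGF1 groups, and ATF4, CEBPB and CEBPG were lowest in the hypoxia controls.

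In WM35, added IGF1 went with higher ATF3 at both oxygen levels, and in hypoxia also with higher CEBPB and CEBPG, whereas ATF4, DDIT3, ATF5, TRIB3, SESN2 and CREBRF did not pass the test at either. ATF3 is a bZIP factor induced by many stresses and mitogens, and CEBPB and CEBPG are C/EBP factors that pair with ATF4. ATF3 stood at 6.42, 6.63 and 6.56 in normoxia controls and at 6.89, 7.09 and 7.08 with IGF1, on the log2 scale used for all levels here. In hypoxia it stood at 6.61, 6.60 and 6.40 without and at 7.11, 7.36 and 7.37 with IGF1. The IGF1 arrays lay above the control arrays at both oxygen levels with no overlap. All effects below are differences of mean log2 levels, with the standard error from the limma fit after the ± sign and an adjusted p over all genes tested. ATF3 rose by 0.49 ± 0.11 in normoxia (adjusted p = 0.048) and by 0.74 ± 0.11 in hypoxia (adjusted p = 0.0020), a 1.67-fold change. The normoxia call sat at the threshold: it was lost under 16 of 23 alternatives, among them the removal of both arrays that stood apart (0.50, adjusted p = 0.068). The hypoxia call held under all 23, at 0.77 (adjusted p = 0.0072) without both arrays. As these are bulk samples, fewer cells expressing a gene and less RNA per cell cannot be told apart.

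CEBPG differed with IGF1 in hypoxia and not detectably in normoxia. Its levels in hypoxia were 8.83, 8.95 and 8.94 without IGF1 and 9.49, 9.49 and 9.44 with it, a rise of 0.56 ± 0.08 (adjusted p = 0.0021). In normoxia they were 9.14, 9.24 and 9.15 without and 9.31, 9.22 and 9.17 with IGF1, and these groups overlapped (0.06 ± 0.08, adjusted p = 0.77). CEBPB rose in hypoxia from 10.83, 10.92 and 10.70 to 11.50, 11.27 and 11.24, by 0.52 ± 0.11 (adjusted p = 0.015), and its normoxia groups overlapped (0.06 ± 0.11, adjusted p = 0.83). The CEBPB call was lost without hypoxia control C or without hypoxia IGF1 A, at an adjusted p of up to 0.054. Without both arrays that stood apart, CEBPG gave 0.53 (adjusted p = 0.0092) and CEBPB 0.53 (adjusted p = 0.037).

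ATF4 itself was at 11.15, 11.08 and 11.03 in hypoxia controls and at 11.40, 11.33 and 11.45 in hypoxia with IGF1. These groups did not overlap, and the difference of 0.31 ± 0.09 missed the threshold (adjusted p = 0.054, and 0.050 without both arrays that stood apart). It passed under 4 alternatives, namely an intensity trend (0.018), detection on all 12 arrays (0.039), the deposited normalized values (0.041) and removal of normoxia control C (0.047). Its normoxia groups overlapped, with 11.55, 11.56 and 11.37 in controls and 11.49, 11.36 and 11.35 with IGF1. The order of ATF4 groups in WM35 thus began with the hypoxia controls (11.09 ± 0.06, SD, n = 3). Hypoxia with IGF1 (11.39 ± 0.06), normoxia with IGF1 (11.40 ± 0.08) and the normoxia controls (11.49 ± 0.11) followed, and these neighbours did not differ beyond their spread. The second ATF4 probe differed with IGF1 in hypoxia by 0.34 ± 0.15 (adjusted p = 0.23), and the third was not well above background on any of the 3 IGF1 arrays there, so it gives no fold.

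Of the 9 genes tested, 1 rose and 0 fell with IGF1 in normoxia, where 0.69% of all 9569 genes rose and 0.888% fell. With IGF1 in hypoxia 3 rose and 0 fell, against 4.5% and 4.56% of all genes, and the median of the 9 effects was 0.31 against 0.00 over all genes. Averaged over both oxygen levels 3 rose and 0 fell, against 7.57% and 7.93%, with ATF3 at 0.61 ± 0.08, CEBPG at 0.31 ± 0.06 and CEBPB at 0.29 ± 0.08. Without both arrays that stood apart 5 passed in that average, the added genes being DDIT3 at 0.32 (adjusted p = 0.039) and CREBRF at -0.52 (adjusted p = 0.031). Among the genes that did not pass, TRIB3, a pseudokinase that binds ATF4 and restrains it, gave 0.29 ± 0.11 with IGF1 in hypoxia (adjusted p = 0.12) on groups that did not overlap. SESN2 gave 0.52 ± 0.20 there (adjusted p = 0.14). ATF5, a bZIP factor of the mitochondrial stress response, gave 0.38 ± 0.13 in normoxia (adjusted p = 0.14) and 0.03 ± 0.13 in hypoxia (adjusted p = 0.91).

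The difference of the IGF1 effect between oxygen levels was tested as an interaction, hypoxia minus normoxia. None of the 9 tested genes passed, against 0.0105% of all genes passing upward and 0.0418% downward. An unadjusted p below 0.05 from limma was seen for 3 of the 9 and for 823 of all 9569 genes. The 3 were CEBPG at 0.51 ± 0.12 (95% interval 0.25 to 0.77, adjusted p = 0.21), CEBPB at 0.47 ± 0.16 (0.12 to 0.81, adjusted p = 0.38) and ATF4 at 0.40 ± 0.13 (0.12 to 0.67, adjusted p = 0.36). The IGF1 effects on these genes at the separate oxygen levels are therefore not shown to differ. ATF3 had an interaction of 0.25 ± 0.15 (-0.08 to 0.59, adjusted p = 0.70).

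Hypoxia without IGF1 moved the WM35 genes both ways: DDIT3 rose while ATF4, CEBPB and CEBPG fell. DDIT3 encodes CHOP, the C/EBP factor that ER stress induces and that favours cell death. DDIT3 stood at 7.42, 7.68 and 7.77 in normoxia controls and at 8.32, 8.15 and 8.01 in hypoxia controls, a rise of 0.54 ± 0.13 (adjusted p = 0.010). ATF4 fell by 0.41 ± 0.09 on the log2 scale (adjusted p = 0.0075), with all 3 hypoxia controls below all 3 normoxia controls. Its second probe also fell, from 6.79, 7.03 and 7.05 to 6.70, 6.37 and 6.03. That was a fall of 0.59 ± 0.15 (adjusted p = 0.022 over the probes tested singly). The third ATF4 probe, detected on only 1 hypoxia control, differed by -0.15 ± 0.14 (adjusted p = 0.52). CEBPB fell by 0.39 ± 0.11 (adjusted p = 0.027) and CEBPG by 0.27 ± 0.08 (adjusted p = 0.037).

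Without both arrays that stood apart, DDIT3 gave 0.53 (adjusted p = 0.034) and ATF4 -0.50 (adjusted p = 0.0097). CEBPB gave -0.36 (adjusted p = 0.12) and CEBPG -0.25 (adjusted p = 0.13), so their calls were lost. Each of these 2 calls was also lost without normoxia control B, normoxia control C, hypoxia control A or hypoxia control C singly, and that of CEBPG also without normoxia control A, hypoxia control B or hypoxia IGF1 B. So 1 of 9 genes rose and 3 fell with hypoxia alone, against 9.98% and 10.7% of all genes.

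With IGF1 present at both oxygen levels, 1 gene rose and 1 fell with hypoxia, against 8.19% and 7.36% of all genes. ATF5 fell by 0.67 ± 0.13 (adjusted p = 0.0032), from 8.76, 8.73 and 8.68 to 8.04, 7.88 and 8.23 with no overlap, and held under all 23 alternatives. DDIT3 rose by 0.42 ± 0.13 (adjusted p = 0.041), from a range of 7.69 to 8.06 to one of 8.28 to 8.37. Its call was lost under 12 of 23 alternatives, with adjusted p-values of up to 0.15. ATF4 differed by -0.01 ± 0.09 (adjusted p = 0.97), CEBPB by 0.08 ± 0.11 and CEBPG by 0.24 ± 0.08 (adjusted p = 0.071).

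**Figure D2:**
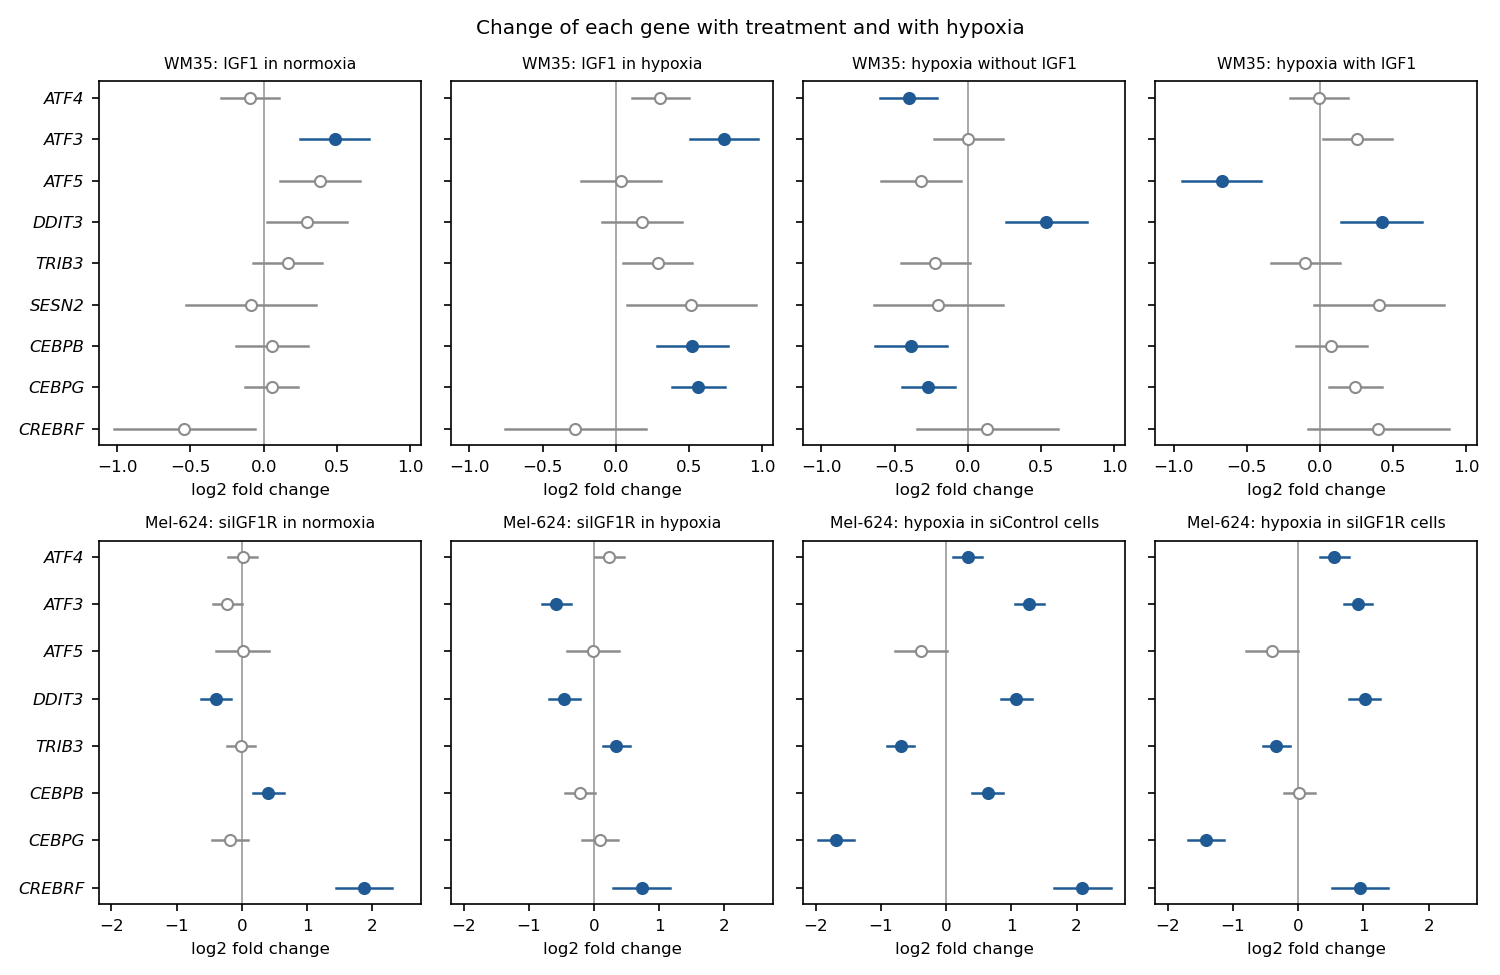
Log2 fold change of each tested gene with treatment at each oxygen level and with hypoxia at each treatment, WM35 above and Mel-624 below, with the 95% interval as a line. Filled points passed at an adjusted p below 0.05. CREBRF in Mel-624 showed changes of 0.73 to 2.09, while every WM35 effect lay between -0.67 and 0.74.

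Genes known as targets of ATF4 were described from fixed lists. With IGF1 in hypoxia in WM35, 7 of 10 amino acid synthesis genes rose and 0 fell (median 0.51 against 0.00 over all genes, of which 4.5% rose and 4.56% fell). They included CTH of cysteine synthesis at 1.13 ± 0.17, PSPH and PSAT1 of serine synthesis at 0.82 ± 0.13 and 0.68 ± 0.10, and PYCR1 of proline synthesis at 0.66 ± 0.09. Of 9 amino acid transporter genes 6 rose and 0 fell (median 0.51), led by the glycine transporter SLC6A9 at 0.98 ± 0.14 and the glutamine transporter SLC1A5 at 0.58 ± 0.10. Of 11 tRNA synthetase genes 5 rose and 0 fell (median 0.36), with GARS1 at 0.63 ± 0.10 and AARS1 at 0.52 ± 0.09. The remaining list of ATF4 and CHOP targets had 1 rise and 0 falls of 15, with a median of -0.03. In normoxia, IGF1 gave 0 calls in the 3 amino acid lists, where only 0.69% of all genes rose and 0.888% fell, and their medians were 0.10, 0.12 and -0.02. In the interaction these lists had 0 calls and medians of 0.42, 0.35 and 0.41.

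Hypoxia without IGF1 went the other way in the amino acid lists, and it shares the hypoxia control arrays with the IGF1 comparison above. Over all genes 9.98% rose and 10.7% fell. Amino acid synthesis genes had 0 rises and 4 falls of 10, with ASNS at -0.52 ± 0.08. Transporter genes had 0 rises and 6 falls of 9, with the cystine transporter SLC7A11 at -0.75 ± 0.12. The tRNA synthetase genes had 0 rises and 8 falls of 11, with YARS1 at -0.59 ± 0.08. Other ATF4 and CHOP targets had 5 rises and 1 fall of 15, among them DDIT4, an mTORC1 inhibitor, at 2.76 ± 0.11 and the lipoprotein receptor VLDLR at 1.64 ± 0.12. Both are also known to respond to hypoxia through other factors. With IGF1 present at both oxygen levels, hypoxia gave 2 rises and 0 falls in the synthesis list, 0 and 1 in the transporter list and 0 and 0 in the tRNA synthetase list, against 8.19% and 7.36% of all genes.

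Of the genes upstream of ATF4, the eIF2 alpha kinases, their cofactors and the phosphatase, 1 of 15 rose with IGF1 in hypoxia and 1 fell with hypoxia alone. That was in both cases EIF2B3, a subunit of the exchange factor that acts on eIF2, at 0.52 ± 0.15 and -0.61 ± 0.15, and both counts were near or below the shares over all genes. Genes of the XBP1 and ATF6 arms of ER stress had 5 rises and 0 falls of 14 with IGF1 in hypoxia. The ER chaperone HSPA5 stood at 0.82 ± 0.09 there and rose in normoxia as well, by 0.50 ± 0.09 (adjusted p = 0.016). No other gene of the 14 passed in normoxia. The median of the list was 0.25 in normoxia and 0.17 in hypoxia, against -0.003 and 0.002 over all genes. Related bZIP factors had 1 rise of 20 with IGF1 in hypoxia (BATF3, 0.81 ± 0.14), near the 4.5% of all genes, and 6 rises and 3 falls with hypoxia alone, against 9.98% and 10.7%, with JUN at 0.74 ± 0.09 and BATF3 at -0.84 ± 0.14. Of the Sestrin and Tribbles relatives, 1 of 4 rose with hypoxia alone, TRIB2 at 1.57 ± 0.17.

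**Figure D3:**
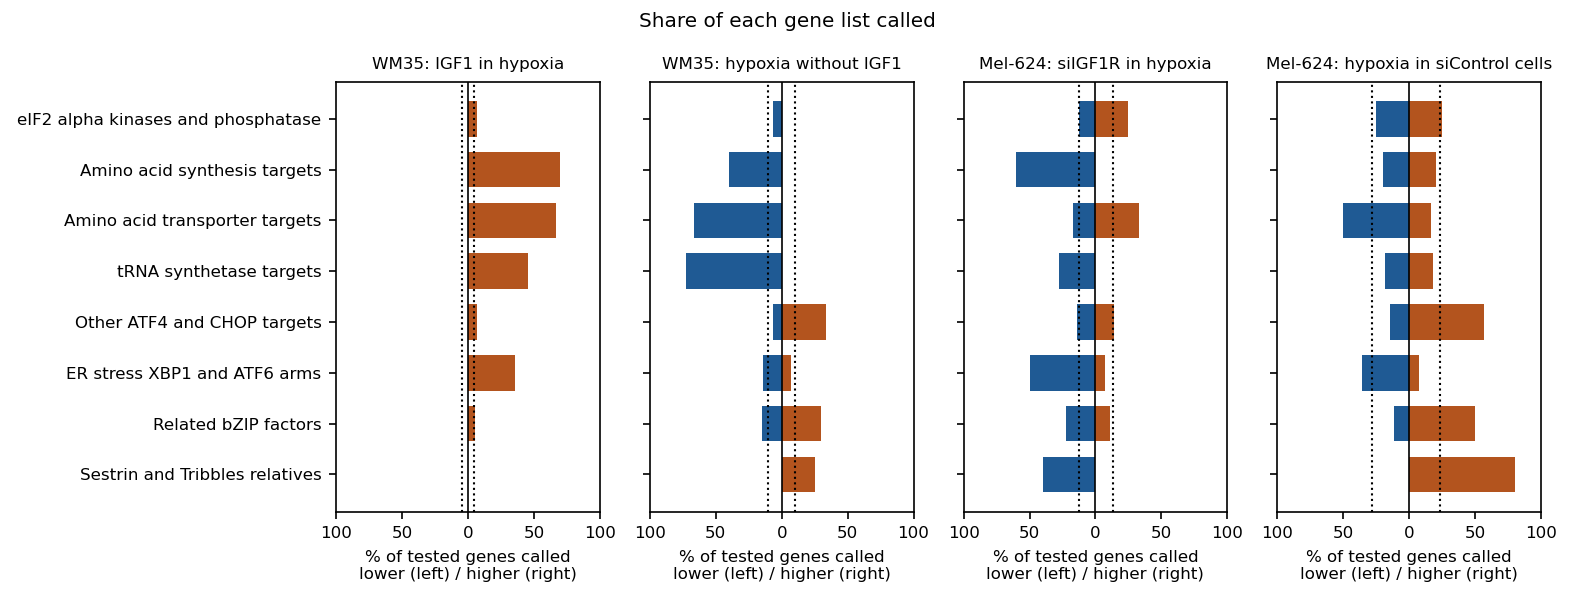
Share of the tested genes of each list that rose (right) or fell (left) in 4 comparisons, with dotted lines at the share over all genes in each direction. Each list holds 4 to 20 tested genes. With IGF1 in hypoxia in WM35 no list had a fall, and with hypoxia alone the 3 amino acid lists had no rise.

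In Mel-624 the targeted gene was reported first. IGF1R stood at 6.98, 7.06 and 7.07 in normoxia siControl cells and at 6.03, 6.28 and 6.39 with siIGF1R, which the fit put at -0.81 ± 0.18 (adjusted p = 0.0099). The hypoxia groups differed by -1.84 ± 0.18 (adjusted p = 2.5e-05), from 8.46, 8.65 and 8.23 to 6.19, 7.02 and 6.59. In WM35 it did not pass with IGF1 in either oxygen level.

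**Figure D4:**
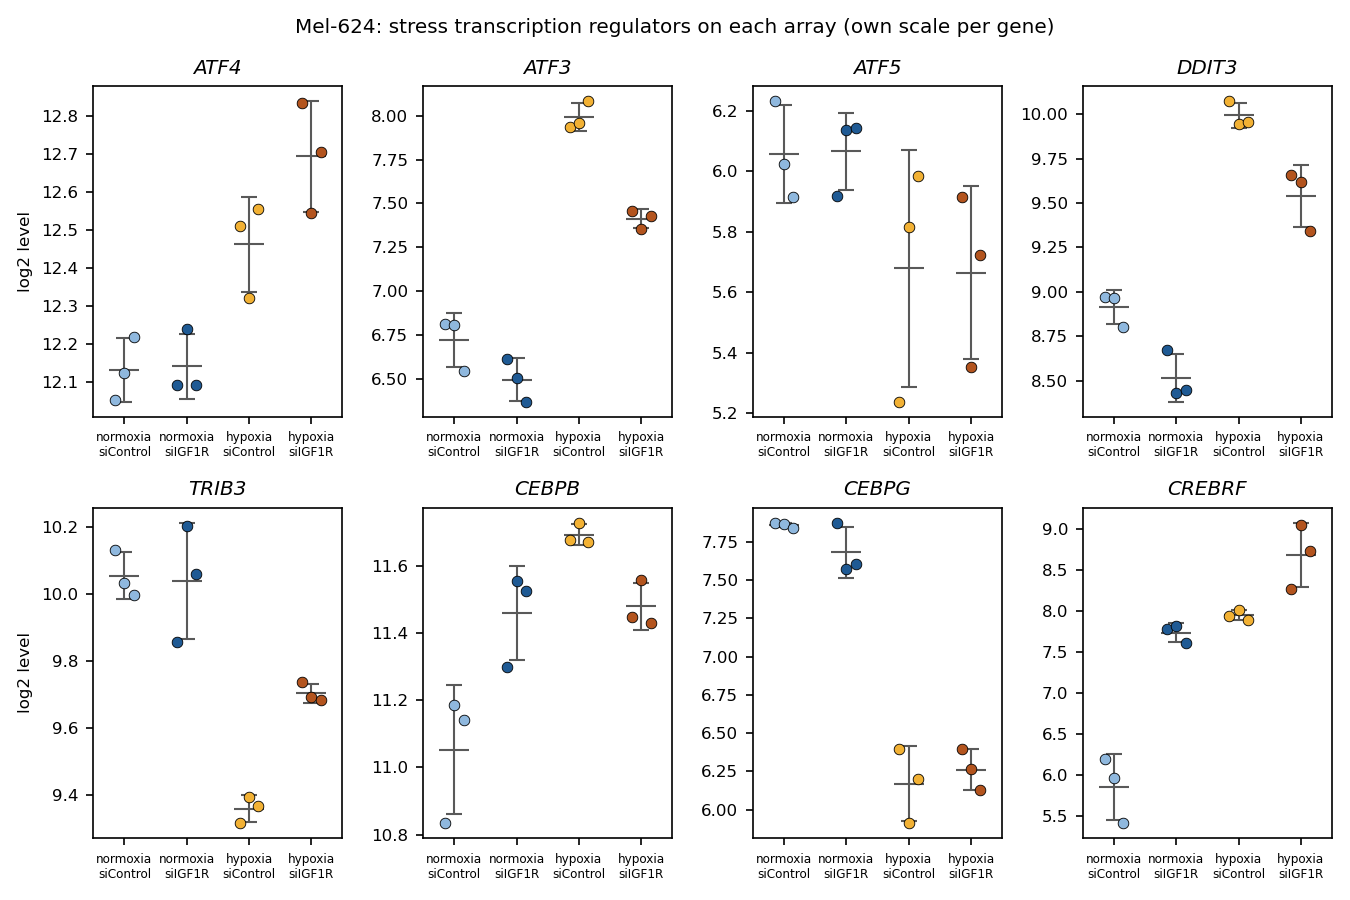
Normalized log2 level of the 8 tested genes on each of the 12 Mel-624 arrays, with 1 panel and 1 scale per gene, points for arrays A, B and C, and the group mean with its SD. CREBRF rose with siIGF1R and with hypoxia, while DDIT3 was higher in hypoxia and lower with siIGF1R at both oxygen levels.

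The gene of this set that knockdown of the receptor moved most was CREBRF, whose product restrains the ER-bound bZIP factor CREB3. In normoxia CREBRF stood at 6.20, 5.97 and 5.42 in siControl cells and at 7.78, 7.82 and 7.61 with siIGF1R. That was a rise of 1.87 ± 0.20 (3.66-fold, adjusted p = 0.00015). The hypoxia levels of CREBRF were 7.94, 8.02 and 7.90 in siControl cells and 8.27, 9.05 and 8.73 with siIGF1R, a rise of 0.73 ± 0.20 (adjusted p = 0.018). Neither pair of groups overlapped. Its second probe rose as well, by 1.56 ± 0.15 in normoxia (from 6.13, 5.93 and 6.12 to 7.77, 7.74 and 7.36) and by 0.80 ± 0.15 in hypoxia. The normoxia siControl array C was not well above background for the brighter probe, and the second probe was detected on all 12 arrays. The hypoxia call was lost without hypoxia siControl C, siIGF1R B or siIGF1R C, with adjusted p-values of up to 0.072.

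DDIT3 was lower with siIGF1R at both oxygen levels. It fell by 0.40 ± 0.11 in normoxia (adjusted p = 0.027), from 8.97, 8.96 and 8.80 to 8.67, 8.43 and 8.45. In hypoxia it fell by 0.45 ± 0.11 (adjusted p = 0.0092), from 10.07, 9.95 and 9.96 to 9.66, 9.62 and 9.34, and neither pair of groups overlapped. ATF3 fell by 0.58 ± 0.10 in hypoxia (adjusted p = 0.0014), from 7.93, 7.96 and 8.08 to 7.46, 7.35 and 7.43. In normoxia the ATF3 groups overlapped (-0.23 ± 0.10, adjusted p = 0.15). The normoxia call of DDIT3 was lost without siControl A, siControl B, siIGF1R B or siIGF1R C.

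CEBPB rose with siIGF1R in normoxia by 0.41 ± 0.11 (adjusted p = 0.025), from 10.83, 11.18 and 11.14 to 11.30, 11.56 and 11.52. In hypoxia it was at 11.68, 11.73 and 11.67 in siControl cells and at 11.45, 11.56 and 11.43 with siIGF1R, a difference of -0.21 ± 0.11 that did not pass (adjusted p = 0.17). The normoxia call was lost without siControl A, siIGF1R B or siIGF1R C. TRIB3 rose in hypoxia by 0.34 ± 0.10 (adjusted p = 0.020), from 9.32, 9.40 and 9.37 to 9.74, 9.69 and 9.68, and its normoxia groups overlapped (-0.02 ± 0.10). Its call was lost without hypoxia siControl A, siControl C or siIGF1R A, at an adjusted p of up to 0.067. ATF4, ATF5 and CEBPG did not pass at either oxygen level, with ATF4 at 0.01 ± 0.10 in normoxia and 0.23 ± 0.10 in hypoxia (adjusted p = 0.12). The second ATF4 probe gave 0.20 ± 0.15 (adjusted p = 0.42) and 0.44 ± 0.15 (adjusted p = 0.054), with no overlap in either. In the average of both it rose by 0.32 ± 0.10 (adjusted p = 0.037), where the read probe gave 0.12 ± 0.07 (adjusted p = 0.22). The third probe, detected on all 12 arrays, gave -0.38 ± 0.14 in normoxia (adjusted p = 0.10) and -0.09 ± 0.14 in hypoxia (adjusted p = 0.71). Its average of -0.23 ± 0.10 did not pass (adjusted p = 0.10).

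With siIGF1R in normoxia 2 of 8 genes rose and 1 fell, against 8.49% and 7.47% of all 9292 genes tested in this line. In hypoxia 2 rose and 2 fell, against 13.1% and 12.7%. Averaged over both oxygen levels 1 rose and 2 fell, against 18.1% and 16.6%, with CREBRF at 1.30 ± 0.14, DDIT3 at -0.43 ± 0.08 and ATF3 at -0.40 ± 0.07. ATF3 thus rose with added ligand in WM35 and fell with receptor knockdown in Mel-624, in lines, times and chips that differ.

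In the interaction of siIGF1R with oxygen, hypoxia minus normoxia, 0 of 8 genes passed, against 0.226% of all genes upward and 0.592% downward, and limma gave an unadjusted p below 0.05 for 4 of the 8 and for 1411 of all 9292 genes. The largest were CREBRF at -1.14 ± 0.28 (95% interval -1.75 to -0.53) and CEBPB at -0.62 ± 0.15 (-0.95 to -0.29), both with an adjusted p of 0.080. The second CREBRF probe gave -0.76 ± 0.21 (adjusted p = 0.14). With an intensity trend in the variance CREBRF and CEBPB both passed (adjusted p = 0.012 and 0.0097). CREBRF also passed without hypoxia siIGF1R B (0.049), and CEBPB with detection on all 12 arrays (0.049). TRIB3 gave 0.36 ± 0.14 (adjusted p = 0.23) and ATF3 -0.36 ± 0.14 (adjusted p = 0.26). The IGF1R knockdown itself gave an interaction of -1.04 ± 0.25 (adjusted p = 0.078).

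Hypoxia moved 7 of the 8 genes in Mel-624 siControl cells, with 5 rises and 2 falls against 23.2% and 28.4% of all genes. CREBRF rose by 2.09 ± 0.20 (4.25-fold, adjusted p = 2.7e-06), ATF3 by 1.27 ± 0.10 (adjusted p = 5.9e-07) and DDIT3 by 1.08 ± 0.11 (adjusted p = 4.2e-06). The second CREBRF probe, detected on all arrays, rose by 1.63 ± 0.15 (adjusted p = 3.1e-06). CEBPB rose by 0.64 ± 0.11 (adjusted p = 0.00031). For these 4 genes every hypoxia siControl array lay above every normoxia siControl array. CEBPG fell by 1.69 ± 0.13 (adjusted p = 3.9e-07), from 7.87, 7.86 and 7.84 to 6.40, 5.91 and 6.20. TRIB3 fell by 0.69 ± 0.10 (adjusted p = 6.0e-05), from 10.05 ± 0.07 to 9.36 ± 0.04 (SD, n = 3), with no overlap. The 6 calls named so far held under all 23 alternatives.

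ATF4 rose by 0.33 ± 0.10 with hypoxia in siControl cells (adjusted p = 0.017), from 12.05, 12.12 and 12.22 to 12.51, 12.32 and 12.56. This call was lost without normoxia siControl A, hypoxia siControl A or hypoxia siControl C, at an adjusted p of up to 0.067. Its second probe rose by 0.78 ± 0.15 (adjusted p = 0.00085), from 7.61, 7.35 and 7.57 to 8.11, 8.31 and 8.45, while the third differed by -0.10 ± 0.14 (adjusted p = 0.62). The groups of the read probe and of the second probe did not overlap, and those of the third did. ATF5 differed by -0.38 ± 0.18 (adjusted p = 0.10) and was not well above background on hypoxia siControl A and hypoxia siIGF1R B.

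In siIGF1R cells hypoxia moved 6 genes, with 4 rises and 2 falls against 22.7% and 27.3% of all genes. DDIT3 rose by 1.02 ± 0.11, CREBRF by 0.95 ± 0.20 (second probe 0.87 ± 0.15), ATF3 by 0.92 ± 0.10 and ATF4 by 0.55 ± 0.10 (adjusted p = 0.00065). The second ATF4 probe rose by 1.02 ± 0.15, while the third differed by 0.19 ± 0.14 (adjusted p = 0.29). CEBPG fell by 1.42 ± 0.13 and TRIB3 by 0.33 ± 0.10 (adjusted p = 0.011). The TRIB3 call was lost without normoxia siIGF1R B (adjusted p = 0.057). CEBPB differed by 0.02 ± 0.11 (adjusted p = 0.90). The 4 ATF4 groups of Mel-624 were ordered from normoxia siControl (12.13 ± 0.08, SD, n = 3) and normoxia siIGF1R (12.14 ± 0.09), which did not differ beyond their spread, to hypoxia siControl (12.46 ± 0.12) and hypoxia siIGF1R (12.69 ± 0.15), which overlapped.

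In the target lists of Mel-624, siIGF1R in hypoxia gave 0 rises and 6 falls among 10 amino acid synthesis genes (median -0.35 against 0.02 over all genes, of which 13.1% rose and 12.7% fell), with PSAT1 at -0.86 ± 0.09, PYCR1 at -0.77 ± 0.09 and ASNS at -0.67 ± 0.13. In normoxia 0 rose and 4 fell, against 8.49% and 7.47% of all genes. The tRNA synthetase genes had 0 rises and 3 falls of 11 in hypoxia, namely AARS1 at -0.98 ± 0.09, WARS1 at -0.58 ± 0.11 and MARS1 at -0.50 ± 0.10. The median of this list was 0.02, as over all genes, so the list as a whole did not shift. In normoxia 0 of its genes rose and 2 fell, with a median of 0.10 against 0.00. The 6 tested transporter genes moved both ways in hypoxia (median 0.24), with SLC1A4 at 0.58 ± 0.11, SLC38A2 at 0.96 ± 0.23 and SLC1A5 at -0.45 ± 0.13. Genes of the XBP1 and ATF6 arms had 1 rise and 7 falls of 14, the rise being CREB3L2, a relative of CREB3, at 0.54 ± 0.09 and the falls including EDEM1 at -0.75 ± 0.13. Related bZIP factors had 2 rises and 4 falls of 18, with FOS at -0.96 ± 0.11, JUN at -0.92 ± 0.14 and CEBPD at 0.58 ± 0.09. Of the 16 tested kinase, cofactor and phosphatase genes 4 rose and 2 fell, with PPP1CA, a catalytic subunit of the phosphatase, at -0.88 ± 0.11 and EIF2AK2, an eIF2 alpha kinase, at 0.49 ± 0.11. Sestrin and Tribbles relatives had 0 rises and 2 falls of 5 (SESN3 and TRIB1), and other ATF4 and CHOP targets 2 rises and 2 falls of 14, the latter close to the shares over all genes.

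Hypoxia in siControl cells gave no one direction in the amino acid lists, with 2 rises and 2 falls of 10 synthesis genes, 1 rise and 3 falls of 6 transporter genes, and 2 rises and 2 falls of 11 tRNA synthetase genes. Over all genes 23.2% rose and 28.4% fell. Other ATF4 and CHOP targets had 8 rises and 2 falls of 14, with VLDLR at 1.39 ± 0.09 and the autophagy receptor SQSTM1 at -0.61 ± 0.12. Related bZIP factors had 9 rises and 2 falls of 18, with DBP at 2.11 ± 0.13 and FOS at 1.70 ± 0.11. PPP1R15A, the stress-induced subunit that directs the phosphatase to eIF2 alpha, rose by 1.73 ± 0.08 (adjusted p = 2.0e-08), within 4 rises and 4 falls of its list of 16, about the shares over all genes. Sestrin and Tribbles relatives had 4 rises of 5, with TRIB2 at 1.00 ± 0.14 and SESN3 at 0.98 ± 0.11. The ER stress list had 1 rise and 5 falls of 14, DNAJB9 at 1.13 ± 0.10 against SDF2L1 at -1.18 ± 0.12.

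Genes whose log2 levels followed these regulators over the 12 arrays of a line were found by Pearson correlation, as a description over arrays that share groups and a chip. In WM35 the genes most like the mean of the 9 tested regulators were AARS1 (r = 0.95), GPRIN1, FKBP14, GOT1 and PYCR1. Those most like ATF4 were TCP1 (r = 0.94), RFTN1, MCM10, GMNN and PCNA, and those most like TRIB3 were INTS9 (r = 0.94), LARS2, FLAD1, LMNB2 and PDF. In Mel-624 the closest to the mean of the 8 were MTPAP (r = 0.95), SHF, SOCS3, CTSD and H2AJ. The closest to ATF4 were RNF216P1 (r = 0.96), DEXI, ABHD4, DNM3 and STN1, and the closest to TRIB3 were BRAT1 (r = 0.99), EFHD2, MOB3C, C6orf47 and GATAD2A.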

How the data were processed

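Average signal intensity per probe, background-subtracted and not normalized between arrays, was deposited per the file headers with a detection p-value per probe and array. GenomeStudio is named, without version, in the submitters' processing notes. A deposited table of normalized intensity, whose method those notes do not give, was used only as an alternative; its log2 values correlated with those computed here at r = 0.996 to 0.998 per array.

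Each line was normalized with neqc of limma 3.58.1 (offset 16, background from detection p-values) in R 4.3.3, giving log2 levels. Probes with detection p below 0.01 on at least 3 of 12 arrays were kept, and the brightest kept probe was read per gene. Group means were fitted with lmFit and eBayes, and a gene was called where its p-value, adjusted by Benjamini and Hochberg's method across every gene of the line, was below 0.05. The code was tested on simulated data. Figures used matplotlib 3.10.9.

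The members, gene lists and alternatives were chosen with earlier results of these data known. Named genes were all members, up to 4 genes with the smallest p per list described, the 5 closest in pattern, IGF1R and 4 hypoxia genes. CEBPD, JDP2, NFE2L1 and ATF6 stand in more than 1 list.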

Additional observations from a re-analysis of the deposited data

Results flagged for a closer look

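In cells without added IGF1 or IGF1R knockdown, the effect of hypoxia on ATF4 and on CEBPB pointed in opposite directions in the lines, with no overlap between the hypoxia and normoxia arrays of these groups. With IGF1 the WM35 arrays overlapped for both genes, as did those of CEBPB in siIGF1R cells. ATF4 changed by -0.41 in WM35 controls and by 0.33 in Mel-624 siControl cells. CEBPB changed by -0.39 in WM35 controls and by 0.64 in Mel-624 siControl cells. The WM35 call of CEBPB was lost under 6 of 23 alternatives and the Mel-624 call of ATF4 under 4 of 23. The third ATF4 probe differed by -0.10 ± 0.14 in Mel-624 siControl cells, on groups that overlapped. The difference between the lines was not tested, and it cannot be told apart from chip, transfection, oxygen level and time in hypoxia.

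CEBPB with siIGF1R in Mel-624 gave 0.41 in normoxia, which passed, and -0.21 in hypoxia, which did not (adjusted p = 0.17), with no overlap in either. The interaction of -0.62 did not pass (adjusted p = 0.080). Under 2 alternatives it did, with adjusted p-values of 0.049 for detection on all 12 arrays and 0.0097 for an intensity trend.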

How the results depend on the processing

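Of 36 called effects of the 10 genes none reversed under any alternative, 15 held under all, 9 were lost only when a fold change of at least 1.5 was asked for, and 12 were lost under others too. In WM35 the count for IGF1 in normoxia went from 1 to 0 with no further background correction, no detection filter, every probe tested on its own, only the arrays compared, the fold threshold, and without both arrays that stood apart. For IGF1 in hypoxia (3) the deposited values gave 5 and the fold threshold 1. For the average (3) the fold threshold gave 1 and removal of both arrays 5. For hypoxia without IGF1 (4) these gave 0 and 2. For hypoxia with IGF1 (2), no detection filter, probes on their own, only the arrays compared and the fold threshold each gave 1. In Mel-624 siIGF1R in normoxia (3) gave 1 with only the arrays compared and 1 with the fold threshold, which also gave 1 in hypoxia (4) and 1 in the average (3). The siIGF1R interaction (0) gave 1 with detection on all 12 arrays and 2 with an intensity trend. Leaving out each array gave 0 to 1, 2 to 4, 2 to 4, 0 to 0, 2 to 4 and 1 to 2 calls for IGF1 in normoxia, in hypoxia, averaged, the interaction, and hypoxia without and with IGF1. In Mel-624 it gave 1 to 3, 2 to 4, 3 to 4, 0 to 1, 6 to 7 and 5 to 7 for siIGF1R in the same order and hypoxia in siControl and siIGF1R cells. Where the alternative does not itself use fewer arrays, more features or a stricter call, the cause was not tested.

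The labels do not say whether replicate letters pair the samples. Deviations of same-letter arrays correlated at -0.28 to 0.41 in WM35 and -0.04 to 0.18 in Mel-624, over 0.1 in 8 and 5 of 18 pairs. Arrays of different letters reached 0.33 in WM35 (normoxia control C with hypoxia control A), so pairing was neither shown nor excluded. With the letter as a block the members called became 0 for IGF1 in normoxia, 1 for hypoxia with IGF1 and 3 for hypoxia without IGF1, and the counts of the other comparisons stayed equal.

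Over all genes, IGF1 in normoxia (151) gave 249 with detection on all 12 arrays, 90 without filter, 100 by probe, 87 with the block, 31 with only the arrays compared, 61 with the fold threshold, 311 with an intensity trend and 26 to 96 without 1 of 8 arrays. IGF1 in hypoxia (867) gave 436 with only the arrays compared, 257 with the fold threshold and 361 to 537 without 1 of 5 arrays. The fold threshold also gave 98 for the average (1483), 738 and 557 for hypoxia without (1981) and with IGF1 (1488), and 459, 831, 488, 2575 and 2457 for siIGF1R in normoxia (1483), in hypoxia (2399) and averaged (3218) and for hypoxia in siControl (4793) and siIGF1R cells (4644). Hypoxia with IGF1 gave 904 without 1 array, and siIGF1R in normoxia 886 to 905. By probe, hypoxia in siControl and siIGF1R cells gave 7325 and 7258. The IGF1 interaction (5) gave 0 to 10 and the siIGF1R interaction (76) gave 0, without the 3 Mel-624 arrays that stood apart, to 168. Precision rests on 3 arrays per group.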

Other observations

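In WM35 CREBRF did not pass with IGF1 at either oxygen level. With IGF1 in normoxia it went from 6.21, 6.18 and 6.34 to 5.48, 5.99 and 5.64 (-0.54 ± 0.22, adjusted p = 0.22). Its second probe, detected on 10 of 12 WM35 arrays, went by -0.76 ± 0.24 (adjusted p = 0.16). In hypoxia the WM35 groups overlapped (-0.28 ± 0.22, adjusted p = 0.49).

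CEBPD, a C/EBP factor outside the 10 genes, rose with siIGF1R in Mel-624 hypoxia by 0.58 ± 0.09, where CEBPB did not pass, and rose with hypoxia alone in WM35 by 0.53 ± 0.12, where CEBPB fell. GDF15, a secreted stress hormone, rose with siIGF1R in normoxia by 0.83 ± 0.10 (adjusted p = 0.00023), and the interaction with oxygen was -0.62 ± 0.13 (adjusted p = 0.058). DDIT4 rose with IGF1 in WM35 normoxia by 0.98 ± 0.11 (adjusted p = 0.00074).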
